A study of Homo sapiens with 13 samples.

Results

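The glycolysis and hypoxia-response genes described here are 35 listed human genes, and all 35 were found on the array by gene symbol, through 45 probes. The array carries 21789 gene symbols in all. Of the 35, 21 act in glycolysis (glucose and lactate transporters, the glycolytic enzymes and the enzymes that set their flux) and 14 are other genes of the hypoxia response. After the filter on dim probes 34 were measured, all 21 glycolysis genes and 13 of the 14 others. CA9, the cell-surface carbonic anhydrase that is a classical hypoxia marker, was not tested. Its signal was above background on only 2 of 13 arrays in treated RNA and on 2 in control RNA. ERO1A is written ERO1L in the files, PKM is written PKM2, and the probe of ANKRD37 is also assigned to UFSP2.

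Glycolysis splits glucose into pyruvate, which lactate dehydrogenase can reduce to lactate instead of passing it to the mitochondria. When oxygen is scarce, the alpha subunits of the hypoxia-inducible factors (HIF) escape hydroxylation by the prolyl hydroxylases, are no longer sent for degradation by the von Hippel-Lindau protein, and raise the transcription of glucose transporters, glycolytic enzymes, VEGFA and many other genes. Several of the hydroxylases are themselves HIF targets. G9a is a methyltransferase of histone H3 lysine 9, a mark of repressed chromatin.

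HEK293T cells descend from human embryonic kidney and express the large T antigen of SV40. Total RNA of treated and control HEK293T cells was hybridised in pairs, one in Cy3 and the other in Cy5, to 13 two-colour Agilent Human 8x60K arrays. An siRNA against G9a (gene EHMT2) was compared with control siRNA at 72 h in 2 biological replicates, on 2 arrays with the treated RNA in Cy5. UNC0638, a small-molecule inhibitor of G9a and of the related enzyme GLP, was given at 1 µM and compared with DMSO at 48 h in 5 biological replicates on 7 arrays: replicates 1 and 2 in both dye orientations, and replicates 3 to 5 in the Cy5 orientation only. WIZ, a zinc finger partner of the G9a and GLP enzymes, was targeted by an siRNA and compared with control siRNA at 72 h in 2 biological replicates, each in both orientations, on 4 arrays. Time, reagent and control therefore differ between the inhibitor and the siRNAs, and from the labels it is not known whether both siRNAs had the same control RNA.

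Each value below is a log2 ratio of treated over control, from the brightest probe of a gene, with dye-swapped arrays of the same replicate averaged. The fit (limma) covered all 9 replicates and 28931 features, and a gene was called at a Benjamini-Hochberg adjusted p under 0.05 over all of them. EHMT2 averaged -1.66 under G9a siRNA (31.6% of control, adjusted p = 0.00234), and WIZ averaged -2.12 under WIZ siRNA (23.1% of control, adjusted p = 0.00141). In control RNA 11 of 12 genes expected in this line were above background, and so were 4 of 10 markers of other cell types.

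The libraries did not all behave as their labels group them. UNC0638 replicate 3 correlated with G9a siRNA replicates 1 and 2 over all features (r = 0.876 and 0.843), and with UNC0638 replicates 1, 2, 4 and 5 at 0.164, 0.177, 0.663 and 0.135, so the values of UNC0638 are also given without it. The 2 dye orientations of the same WIZ RNA pair, both turned to treated over control, correlated at -0.483 and -0.357 over all features, and those of UNC0638 at 0.037 and 0.0375. On the arrays hybridised in 1 orientation the ratio also moved with the base composition of the probe: in G9a siRNA replicates 1 and 2 the median was -0.32 and -0.43 for probes over 50% GC, and 0.15 and 0.2 for probes up to 40% GC.

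Most of these genes were called under G9a siRNA, in both directions, though only 13 of 34 with the dye effect subtracted, as given below. Of the 34 measured, 9 rose and 12 fell, that is 21 or 61.8%, where 33.2% of all features were called, 15% as higher and 18.2% as lower. Restricted to probes above background on every array, the fit called 21 of 33 members, against 52.9% of all features. With the first filter, 10 of the 21 glycolysis genes fell, 3 rose and 8 were not called. Of the 13 other hypoxia genes 6 rose, 2 fell and 5 were not called. The medians of the 2 groups were -0.2 and 0.2, and that of all features was -0.0082. On the WIZ siRNA arrays of the same dye orientation the glycolysis medians were -0.15 and 0.028, and those of the other hypoxia genes 0.29 and 0.24. The glycolysis genes called with the dye effect subtracted were PFKL, PFKFB4, ALDOA, PFKP, PKM2 and PFKM as lower, and HK2, LDHA and PDK1 as higher. Of the other hypoxia genes, ERO1A, BNIP3L and P4HA1 were higher in that fit and EGLN1 was lower. The median size of the log2 ratio, without its sign, was 0.34 for the members and 0.19 for all features. These calls rest on 2 replicates of 1 dye orientation: without replicate 1, 10 members and 20.9% of all features were called, and without replicate 2, no member was, nor any other feature. In that last fit 17 of the 34 had an unadjusted p under 0.05, against 25% of all features.

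**Figure D1:**
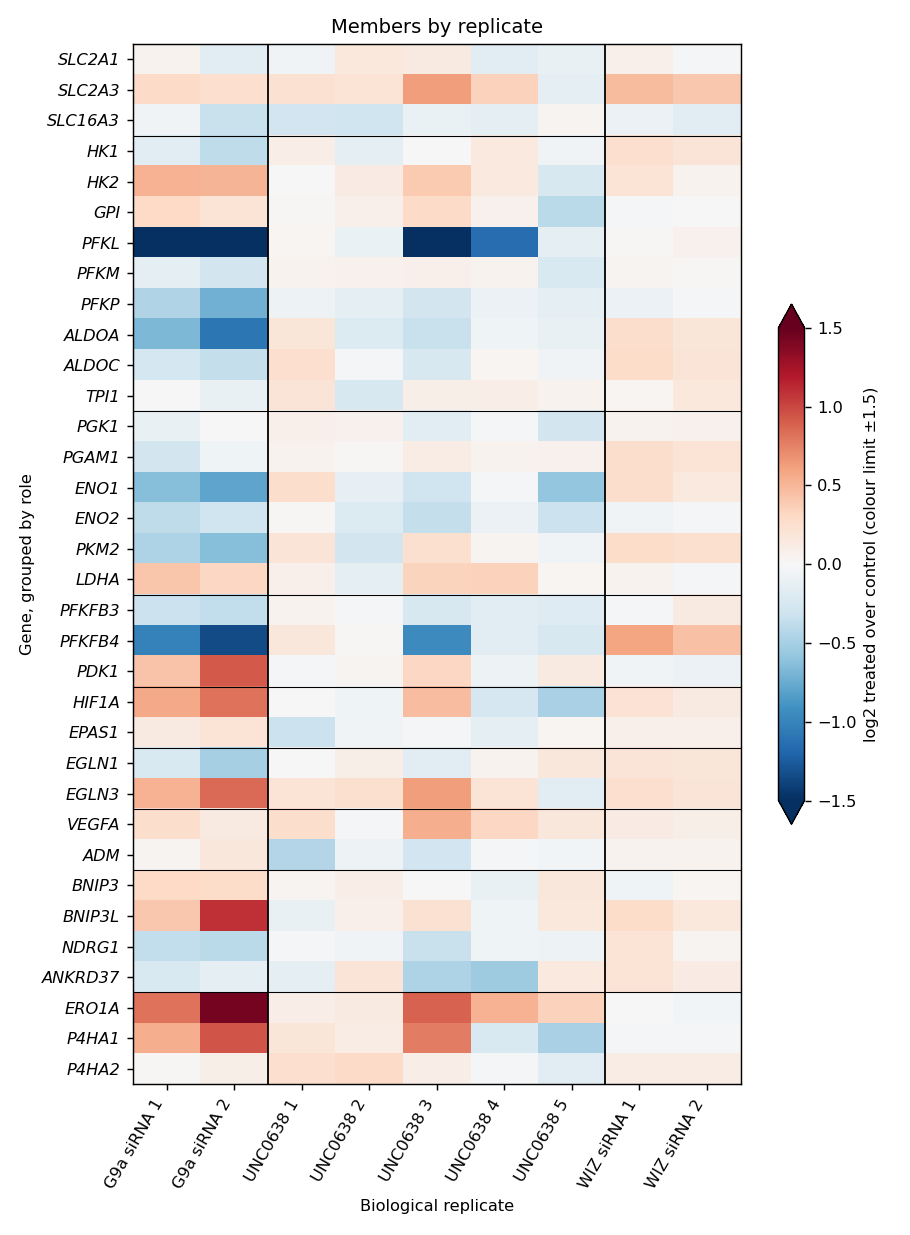
Colour gives the log2 ratio of treated over control for each of the 34 measured genes (rows, grouped by role) in each of the 9 biological replicates (columns), with the colour limited at ±1.5, so PFKL at -2.87 and -3.91 under G9a siRNA is off the scale. UNC0638 replicate 3 shows the colours of the G9a siRNA columns for PFKL, PFKFB4 and ERO1A, and the 2 WIZ siRNA replicates are pale for most genes.

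The 3 transporters were not called under G9a siRNA. SLC2A1, the widespread glucose transporter, had log2 ratios of 0.051 and -0.17 in replicates 1 and 2 (mean -0.058, adjusted p = 0.697). SLC2A3, a high-affinity glucose transporter, had 0.29 and 0.25 (mean 0.27, adjusted p = 0.187). SLC16A3, which exports lactate, had -0.049 and -0.33 (mean -0.19, adjusted p = 0.188).

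Among the 9 genes of the upper steps, from hexokinase to triose phosphate isomerase, 5 fell and 1 rose. PFKL, the liver-type subunit of phosphofructokinase, which commits sugar to glycolysis, had the largest change of any member. Its log2 ratios were -2.87 and -3.91 in the 2 G9a siRNA replicates (mean -3.39 ± 0.74 SD, n = 2, SE of the fit 0.54), which left 9.56% of the control signal (adjusted p = 0.00326). In raw brightness the PFKL spot read 1880 and 1400 in G9a siRNA RNA, against 13000 and 26000 in control siRNA RNA. Both replicates were far below control, and their 95% confidence interval reached from -4.59 to -2.18. The probe lies on chr21:45744490-45744538 and chr21:45744739-45744749 (plus strand, build 37.1 as the files give it), in 2 blocks, and its GC content is 55%. It is the only PFKL probe, and its brightness varied between arrays of the same RNA pair. In UNC0638 replicate 1 it read 19600 in UNC0638 RNA and 30700 in DMSO RNA with the treated RNA in Cy3. In the swapped orientation it read 5910 and 4170.

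PFKP, the platelet-type subunit, had -0.45 and -0.72 (mean -0.59 ± 0.19 SD, n = 2, adjusted p = 0.00293), and its second probe -0.7 and -1.0. PFKM, the muscle-type subunit, had -0.13 and -0.28 (mean -0.2, adjusted p = 0.107) and was not called. All 3 phosphofructokinase genes had negative ratios in both replicates, and 2 of the 3 passed the test. ALDOA, the main aldolase, which cleaves the six-carbon sugar, had -0.67 and -1.08 (mean -0.87 ± 0.29 SD, n = 2, 54.7% of control, adjusted p = 0.00296). ALDOC, the brain-type aldolase, had -0.26 and -0.36 (mean -0.31, adjusted p = 0.0453), and this is the 1 call that turned round under another processing: with the GC trend removed its mean was 0.067.

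The hexokinases, which phosphorylate glucose on entry, went opposite ways. HK2 had 0.52 and 0.51 (mean 0.51, adjusted p = 0.0127) and rose to 143% of control, whereas HK1 had -0.17 and -0.38 (mean -0.28, adjusted p = 0.0355) and fell to 82.5%. The second HK2 probe, above background on 4 of 13 arrays, read -0.014 and 0.1. GPI, the isomerase between hexokinase and phosphofructokinase, had 0.3 and 0.21 (adjusted p = 0.168), and TPI1 had 0.0088 and -0.11 (adjusted p = 0.75).

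In the lower steps 3 genes fell and 1 rose. ENO1, the widespread enolase, had -0.64 and -0.79 (mean -0.71 ± 0.11 SD, n = 2, 61% of control, adjusted p = 0.00918), and ENO2, the neuronal enolase, had -0.38 and -0.3 (mean -0.34, adjusted p = 0.0238). PKM2, the pyruvate kinase gene, had -0.46 and -0.64 (mean -0.55, adjusted p = 0.00747). LDHA, which makes lactate from pyruvate, went the other way with 0.42 and 0.31 (mean 0.37, 129% of control, adjusted p = 0.0368). PGK1, the first ATP-forming enzyme, had -0.11 and -0.0074 (adjusted p = 0.69), and PGAM1, a phosphoglycerate mutase, had -0.27 and -0.06 (adjusted p = 0.112), neither of them called.

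All 3 genes that set the flux were called. PFKFB4, which makes and removes the allosteric activator of phosphofructokinase, had -1.01 and -1.34 (mean -1.18 ± 0.23 SD, n = 2, 44.3% of control, adjusted p = 0.00466). Its spot read 706 and 494 in G9a siRNA RNA, against 1440 and 1710 in control siRNA RNA. The related PFKFB3 had -0.32 and -0.37 (mean -0.34, adjusted p = 0.016). PDK1, the kinase that switches off pyruvate dehydrogenase, had 0.43 and 0.92 (mean 0.68 ± 0.35 SD, n = 2, 160% of control, adjusted p = 0.00453) and rose.

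**Figure D2:**
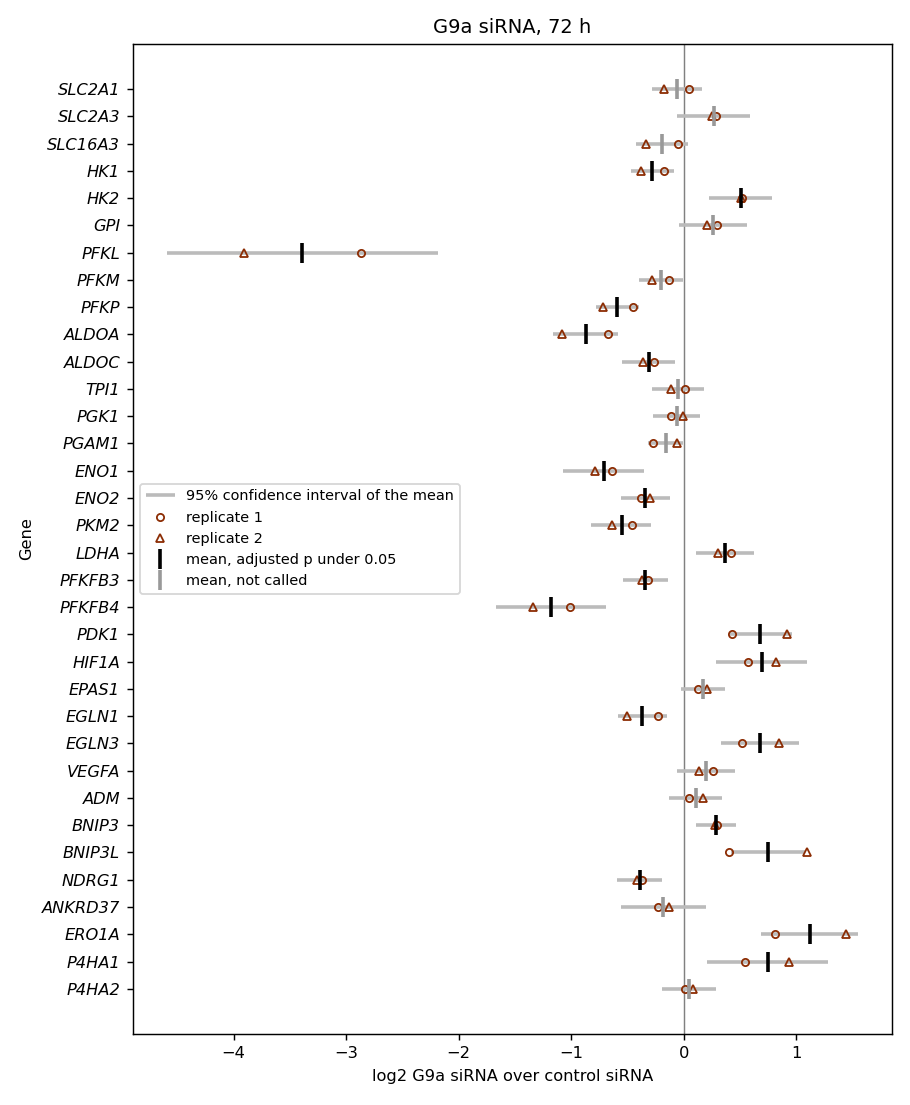
The horizontal axis is the log2 ratio of G9a siRNA over control siRNA for the 34 measured genes, with circles and triangles for replicates 1 and 2, bars for the mean (black where called) and grey lines for its 95% confidence interval. PFKL (mean -3.39) lies far left of all other members, PFKFB4 (-1.18) is next, and ERO1A (1.12) lies farthest right.

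Of the HIF subunits, HIF1A rose under G9a siRNA and EPAS1 was not called. HIF1A had log2 ratios of 0.57 and 0.82 (mean 0.7 ± 0.17 SD, n = 2, 162% of control, adjusted p = 0.016), and its second probe 0.6 and 0.35. EPAS1, which encodes HIF-2 alpha, had 0.13 and 0.21 (mean 0.17, adjusted p = 0.17). The 2 prolyl hydroxylases on the list were called in opposite directions, EGLN3 not with the dye effect subtracted (mean 0.4, adjusted p = 0.113). EGLN3 had 0.52 and 0.85 (mean 0.68, adjusted p = 0.00955) and rose to 160% of control, and EGLN1, the main oxygen sensor, had -0.23 and -0.5 (mean -0.37, adjusted p = 0.0173) and fell to 77.6%.

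ERO1A, an oxidase that forms disulphide bonds in the endoplasmic reticulum, had the largest increase among the members. Its log2 ratios were 0.81 and 1.44 (mean 1.12 ± 0.44 SD, n = 2, SE of the fit 0.19), 218% of control (adjusted p = 0.00379). Its spot read 13000 and 13600 in G9a siRNA RNA, against 6750 and 6000 in control siRNA RNA. P4HA1, a catalytic subunit of the collagen prolyl hydroxylase, had 0.55 and 0.94 (mean 0.75, adjusted p = 0.0379), while the related P4HA2 had 0.013 and 0.088 (adjusted p = 0.765).

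The mitophagy receptors BNIP3L and BNIP3 both rose. BNIP3L had 0.4 and 1.1 (mean 0.75 ± 0.5 SD, n = 2, adjusted p = 0.00548), with 0.34 and 0.26 from its second probe. BNIP3 had 0.3 and 0.28 (mean 0.29, adjusted p = 0.0208). NDRG1, a stress-response gene with a strong hypoxic induction in many lines, had -0.37 and -0.41 (mean -0.39, adjusted p = 0.00964) and fell. ANKRD37 had -0.23 and -0.13 (adjusted p = 0.455), and the secreted factors VEGFA and ADM had means of 0.2 (adjusted p = 0.22) and 0.11 (adjusted p = 0.485), so neither angiogenic factor was called from its brightest probe.

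A second probe changed the reading for some members. Of the 10 members with 2 probes, VEGFA disagreed most: its brightest probe had 0.26 and 0.14 under G9a siRNA, and the second -0.68 and -1.13. The 2 VEGFA probes lie on the plus strand at chr6:43753511-43753570 and, split over 2 blocks, at chr6:43746223-43746273 and chr6:43746626-43746634 (build 37.1), with GC contents of 20% and 45%. With the mean of both probes in the fit, VEGFA averaged -0.35 (adjusted p = 0.0137). P4HA2 had 0.013 and 0.088 from its brightest and -0.18 and -0.37 from its second probe. PGAM1 had -0.86 and -1.66 from its second probe, and averaged -0.71 with both (adjusted p = 0.003). For LDHA the second probe gave the larger increase, 1.14 and 0.9, and the mean of both was 0.69 (adjusted p = 0.0165). Whether the probes of a gene read different transcripts was not tested.

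**Figure D3:**
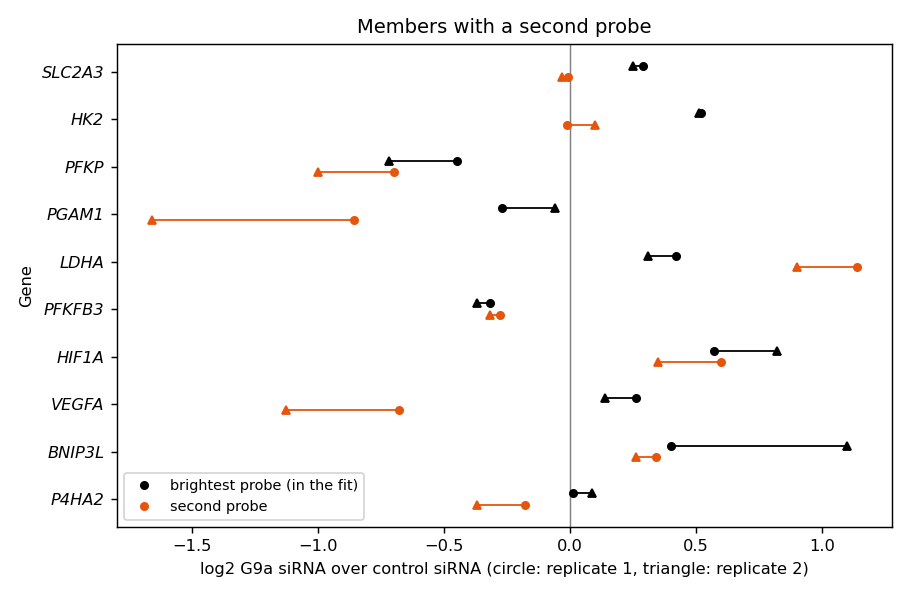
The horizontal axis is the log2 ratio of G9a siRNA over control siRNA for the 10 members with 2 probes, black for the brightest probe and orange for the second, with a circle for replicate 1 and a triangle for replicate 2. The 2 probes lie on opposite sides of 0 in both replicates for VEGFA, P4HA2 and SLC2A3, the last within 0.032 of 0 by its second probe, and PGAM1 and LDHA differ in size.

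Several values moved with the G9a siRNA calls. The 5 members with probes over 50% GC had a median of -0.71, and the 14 with probes up to 40% GC a median of 0.11. With the GC trend removed from each replicate, 18 of the 31 members with a known probe sequence were called (5 higher, 13 lower), 15 of them among the 21, where 45% of all features were called. On the WIZ siRNA arrays of the Cy5 orientation, which is that of the G9a siRNA arrays, 17 of the 21 called members had the sign they had under G9a siRNA in each of the 2 replicates. In the Cy3 orientation 5 and 3 of the 21 did. The same was not counted over all features called under G9a siRNA. With the dye effect of each probe, as estimated from the swapped pairs, subtracted, 13 members were called (6 higher, 7 lower), 12 of them among the 21, where 27.1% of all features were called. PFKL averaged -3.09, PFKFB4 -0.94 and ERO1A 1.27 in that fit, while HIF1A averaged 0.29 (adjusted p = 0.333) and ENO1 -0.32 (adjusted p = 0.0994) and were no longer called. EGLN3, ENO2, ALDOC, HK1, PFKFB3, NDRG1 and BNIP3 were not called in it either, and PFKM was (mean -0.36, adjusted p = 0.0349).

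HIF binds a short core sequence in hypoxia response elements, so the start-site windows of the members were searched for the cores ACGTG and GCGTG. The windows, from 250 bases before to 50 bases after the transcription start, are those of RefSeq (GRCh38.p14), and 31 of the 35 members matched one (SLC2A3, VEGFA, BNIP3L and NDRG1 did not). Both strands were searched, and a palindromic CACGTG counts as 2 matches. ACGTG was present in 13 of the 31 windows (41.9%), against 21.6% of 27305 windows of all genes. It was in 5 of 8 windows of members that rose under G9a siRNA, in 4 of 11 of members that fell, and in 3 of 11 of members that were not called. GCGTG was in 15 of the 31 windows (48.4%), against 36.3% of all. It was in 5 of 8 windows of members that rose, in 6 of 11 of members that fell, and in 4 of 11 of members not called. The windows of all genes were not matched to those of the members in GC content. These matches are a description of the letters in the windows, with no test. The groups that rose and fell are those of the first fit, and several of its calls were lost with the dye effect subtracted, as given above. The 4 windows below set a strong riser (ERO1A) and a riser with 5 ACGTG matches (LDHA) beside 2 members called lower. These are ALDOC, whose window holds 3, and PFKFB4, one of the strongest fallers, with none. The ALDOC call (adjusted p = 0.0453 with limma) was lost with the dye effect subtracted. With the GC trend removed the ALDOC mean was 0.067. Capitals mark the cores ACGTG and GCGTG or their reverse complements, and each sequence runs 5′ to 3′ along the gene's own strand.
ERO1A, chr14:52695509-52695808, minus strand: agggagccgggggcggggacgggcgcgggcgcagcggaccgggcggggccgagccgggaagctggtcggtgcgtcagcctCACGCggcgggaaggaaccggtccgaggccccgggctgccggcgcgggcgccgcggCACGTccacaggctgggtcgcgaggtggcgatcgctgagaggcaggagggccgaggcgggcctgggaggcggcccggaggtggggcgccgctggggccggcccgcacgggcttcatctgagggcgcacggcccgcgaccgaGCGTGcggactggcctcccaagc
LDHA, chr11:18394313-18394612, plus strand: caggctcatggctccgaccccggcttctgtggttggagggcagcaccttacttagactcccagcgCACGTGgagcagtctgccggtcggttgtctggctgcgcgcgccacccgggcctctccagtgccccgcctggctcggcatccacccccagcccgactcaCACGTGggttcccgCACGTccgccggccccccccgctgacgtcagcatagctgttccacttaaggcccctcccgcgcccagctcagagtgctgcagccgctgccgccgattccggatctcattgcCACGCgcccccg
ALDOC, chr17:28576846-28577145, minus strand: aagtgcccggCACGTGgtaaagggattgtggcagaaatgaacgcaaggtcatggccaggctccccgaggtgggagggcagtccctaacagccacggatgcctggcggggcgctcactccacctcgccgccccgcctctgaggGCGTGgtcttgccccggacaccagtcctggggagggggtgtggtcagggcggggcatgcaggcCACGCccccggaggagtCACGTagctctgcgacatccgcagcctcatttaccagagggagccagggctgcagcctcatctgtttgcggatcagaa
PFKFB4, chr3:48556754-48557053, minus strand: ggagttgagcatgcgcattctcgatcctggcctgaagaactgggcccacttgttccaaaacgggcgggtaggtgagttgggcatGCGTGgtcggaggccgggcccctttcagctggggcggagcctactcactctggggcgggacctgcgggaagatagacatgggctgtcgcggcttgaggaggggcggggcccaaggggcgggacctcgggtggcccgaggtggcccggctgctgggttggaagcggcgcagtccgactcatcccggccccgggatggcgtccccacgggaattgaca
The ERO1A window holds 1 ACGTG and 2 GCGTG, the LDHA window 5 and 1, the ALDOC window 3 and 2, and the PFKFB4 window 0 and 1.

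UNC0638 called none of the members. The count was 0 of 34 with limma, where 3.65% of all features were called (1.75% higher, 1.9% lower), and at an unadjusted p under 0.05 it was 8 of 34 (23.5%), against 20.8% of all features. Without replicate 3 the count was also 0, with 5 of 34 at an unadjusted p under 0.05 against 16% of all features. The median of the members was 0.0069 and that of all features -0.012. The replicates differed in spread: the SD over members was 0.167 and 0.15 in replicates 1 and 2, 0.277 and 0.214 in replicates 4 and 5, and 0.595 in replicate 3.

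ERO1A was above control in all 5 UNC0638 replicates, with log2 ratios of 0.095, 0.13, 0.89, 0.52 and 0.35 in replicates 1 to 5 (mean 0.39 ± 0.33 SD, n = 5, adjusted p = 0.119). Its mean was 0.27 without replicate 3 (adjusted p = 0.237), 0.11 in replicates 1 and 2 alone and 0.58 in replicates 3 to 5 alone. PFKL had 0.032, -0.1, -2.54, -1.14 and -0.15 (mean -0.78 ± 1.09 SD, n = 5, adjusted p = 0.234). The PFKL mean rests on replicates 3 and 4: it was -0.34 without replicate 3 and -0.035 in replicates 1 and 2 alone. In replicate 3 its raw spot brightness was 4030 in UNC0638 RNA against 21000 in DMSO RNA.

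SLC2A3 had 0.23, 0.21, 0.63, 0.35 and -0.14 (mean 0.26, adjusted p = 0.161), and was called only when replicate 5 was left out (mean 0.36, adjusted p = 0.0411), with a mean of 0.16 without replicate 3. VEGFA had 0.26, -0.018, 0.55, 0.31 and 0.17 (mean 0.26, adjusted p = 0.0973), and was called only when replicate 2 was left out (mean 0.33, adjusted p = 0.0484), with a mean of 0.18 without replicate 3. By their brightest probes both were above control in 4 of 5 replicates, and neither passed the test over all 5. The second VEGFA probe read 0.058, 0.19, -0.51, 0.019 and 0.38 in replicates 1 to 5 (mean 0.027).

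The HIF and hydroxylase genes had no common direction under UNC0638. HIF1A had 0.0078, -0.07, 0.46, -0.25 and -0.49 (mean -0.068, adjusted p = 0.77), and EPAS1 had -0.32, -0.048, -0.019, -0.14 and 0.029 (mean -0.099, adjusted p = 0.341). EGLN1 averaged 0.026 (adjusted p = 0.843) and EGLN3 0.22 (adjusted p = 0.242). Without replicate 3 the means were -0.2 for HIF1A, -0.12 for EPAS1, 0.075 for EGLN1 and 0.12 for EGLN3, none of them called. HIF1A thus spanned both sides of 0 within replicates 3 to 5, which share a dye orientation. The second HIF1A probe read 0.41, -0.017, 1.37, -0.16 and -0.27 in replicates 1 to 5 (mean 0.27). The replicates in both orientations, taken alone, called 2 members: P4HA2 at 0.27 (adjusted p = 0.0247) and SLC16A3 at -0.3 (adjusted p = 0.0183). In that fit 4.46% of all features were called, near the share of the members.

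Set against the G9a siRNA mean over the 34 members, UNC0638 replicate 3 correlated at 0.929, replicate 4 at 0.675, and replicates 1, 2 and 5 at -0.065, 0.381 and 0.164. Without PFKL, whose value lies far from the rest, the r of replicate 3 was 0.836 and that of replicate 4 was 0.312. These are correlations across genes, which are not independent replicates, and replicates 3 to 5 also share the dye orientation of the G9a siRNA arrays. Of the 21 members called under G9a siRNA, 19 had the same sign in replicate 3, 17 in replicate 2, 16 in replicate 5, 12 in replicate 4 and 10 in replicate 1. Signs were not counted over all features called under G9a siRNA, so these counts cannot be read as particular to the members. Over all features replicate 3 correlated with G9a siRNA replicates 1 and 2 at 0.876 and 0.843, and replicate 4 at 0.5 and 0.499.

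**Figure D4:**
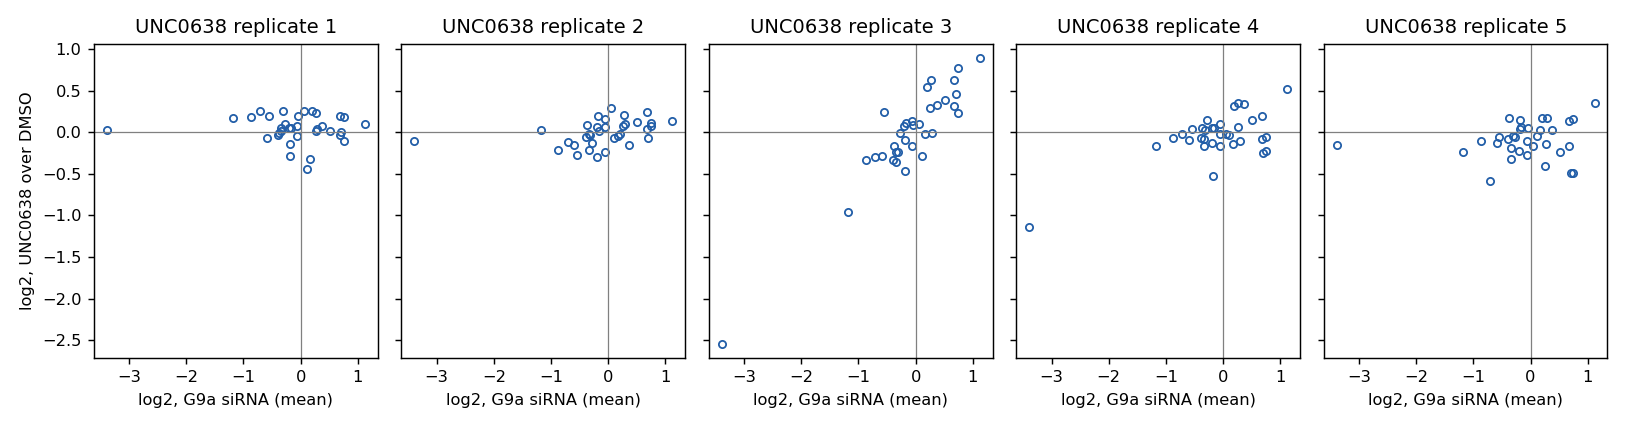
Each panel plots the log2 ratio in 1 UNC0638 replicate (vertical) against the mean log2 ratio under G9a siRNA (horizontal) for the 34 members. The points of replicate 3 follow the G9a siRNA values (r = 0.929, 0.836 without PFKL), and those of replicates 1 and 5 spread around 0.

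WIZ siRNA called none of the members in the fit over all replicates. The count was 0 of 34 with limma, where 0.615% of all features were called (0.0795% higher, 0.536% lower), and at an unadjusted p under 0.05 it was 4 of 34 (11.8%), against 8.07% of all features. The 2 replicates lay close together, and 26 of the 34 means were above 0 (median 0.1, against 0.012 for all features). Fitted on the 2 WIZ siRNA replicates alone, 13 members were called, all higher, where 23.7% of all features were called. That fit takes the spread from 2 replicates that agree closely, and the other takes it from all 9.

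PFKFB4 had the largest mean under WIZ siRNA, 0.59 and 0.44 in replicates 1 and 2 (mean 0.51 ± 0.1 SD, n = 2, adjusted p = 0.582, and 0.000739 on its own replicates alone). Its 2 orientations differed: 1.2 and 0.78 with treated cells in Cy3, and -0.024 and 0.11 in Cy5. SLC2A3 had 0.48 and 0.41 (mean 0.45, adjusted p = 0.341). By its brightest probe it was above control on all 4 arrays, at 0.78 and 0.66 in Cy3 and 0.18 and 0.17 in Cy5. Its dim second probe read 0.021 and -0.075 in Cy3 and 0.23 and 0.14 in Cy5. PGAM1 had 0.26 and 0.2 (mean 0.23, adjusted p = 0.317) and was above control on all 4 arrays by its brightest probe, while its second probe read 1.32 and 1.17 in Cy3 and -0.67 and -0.43 in Cy5. PKM2 had 0.28 and 0.24 (mean 0.26, adjusted p = 0.646), made of 0.86 and 0.59 in Cy3 and -0.31 and -0.12 in Cy5.

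HIF1A averaged 0.18 under WIZ siRNA (adjusted p = 1), EPAS1 0.081 (adjusted p = 1), EGLN1 0.18 (adjusted p = 0.743) and EGLN3 0.22 (adjusted p = 0.918). HIF1A read -0.37 and -0.38 in the Cy3 orientation and 0.8 and 0.65 in the Cy5 orientation, and the arrays of EGLN3 -0.3 and -0.24 in Cy3 and 0.8 and 0.63 in Cy5. For both genes the direction on a single array was thus that of its dye orientation.

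The dye orientation divided the 2 gene groups on the WIZ siRNA arrays. With the treated RNA in Cy3 the glycolysis genes had medians of 0.34 and 0.28 and the other hypoxia genes -0.097 and -0.06. In Cy5 the glycolysis medians were -0.15 and 0.028, and those of the other hypoxia genes 0.29 and 0.24. Over the 34 members, 26 and 27 had opposite signs in the 2 orientations of replicates 1 and 2, and the orientations correlated at -0.718 and -0.701. On the UNC0638 arrays of replicates 1 and 2, 20 members in each had opposite signs (r = 0.0959 and -0.136). WIZ itself was below control on all 4 WIZ siRNA arrays, from -2.33 to -1.93.

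**Figure D5:**
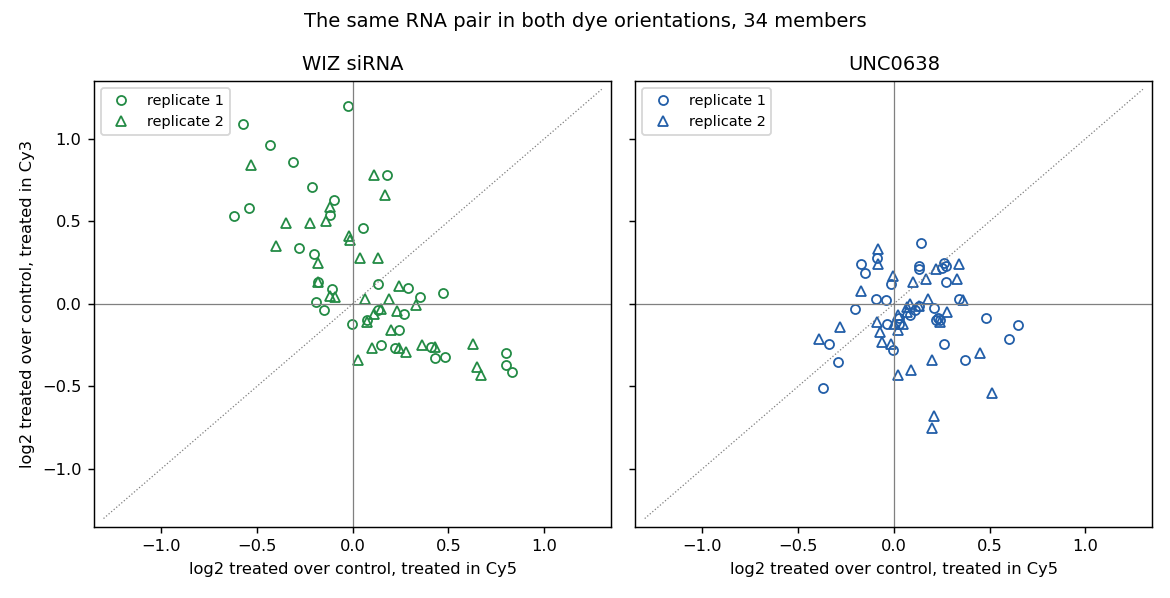
Each point is 1 of the 34 members in 1 replicate, with its log2 ratio of treated over control when the treated RNA was in Cy5 (horizontal) and in Cy3 (vertical). The dotted line marks equal values, and WIZ siRNA points (left) run from upper left to lower right (r = -0.718 and -0.701) while UNC0638 points (right) lie around 0.

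The test of the difference between G9a siRNA and UNC0638 called 8 of the 34 members, 23.5%, where 12.7% of all features were called (6.08% higher, 6.58% lower). PFKL, PFKFB4, ALDOA, PKM2 and PFKP were lower under G9a siRNA, with differences of -2.61 (adjusted p = 0.0333), -0.94 (adjusted p = 0.0445), -0.77 (adjusted p = 0.0225), -0.58 (adjusted p = 0.032) and -0.44 (adjusted p = 0.0273). HIF1A, BNIP3L and PDK1 were higher, by 0.76 (adjusted p = 0.0461), 0.69 (adjusted p = 0.0362) and 0.6 (adjusted p = 0.0339). The second probe of HIF1A averaged 0.48 under G9a siRNA and 0.27 under UNC0638, so the 2 lay closer together by it. The second probe of BNIP3L averaged 0.3 and 0.027, and that of PFKP -0.85 and -0.24. With the dye effect subtracted, 7 members and 7.73% of all features were called, HIF1A not among them. ERO1A, the strongest riser, differed by 0.73 (adjusted p = 0.0631) and was not called. Against UNC0638 replicates 3 to 5, which share the dye orientation of the G9a siRNA arrays, the 8 differences kept their direction (PFKL -2.11, PFKFB4 -0.72, ALDOA -0.7, PKM2 -0.63, PFKP -0.42, HIF1A 0.79, BNIP3L 0.64, PDK1 0.55) and none was called, nor was any other feature, with 9 of 34 members at an unadjusted p under 0.05 against 16% of all features. The array set, dye-swapped replicates against those hybridised in a single orientation, was taken from the dye layout and is not named in the labels. With the array set as a block 0 members were called, 15 of 34 at an unadjusted p under 0.05, against 25.2% of all features. With only probes above background on every array the count was 10 of 33, where 26.4% of all features were called. Without UNC0638 replicate 3 the count was 16, where 28% of all features were called. Without UNC0638 replicate 4 or G9a siRNA replicate 2 it was 0, without UNC0638 replicate 1, WIZ siRNA replicate 1 or WIZ siRNA replicate 2 it was 1, without UNC0638 replicate 2 it was 2, and without G9a siRNA replicate 1 it was 4, with 0% to 5.76% of all features called in these fits.

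WIZ siRNA differed from G9a siRNA at 13 of the 34 members, 38.2%, where 19.8% of all features were called (10.9% higher, 8.89% lower). Of these 11 were higher under WIZ siRNA: PFKL by 3.43 (adjusted p = 0.0176), PFKFB4 by 1.69 (adjusted p = 0.0117), ALDOA by 1.09 (adjusted p = 0.0098), ENO1 by 0.92 (adjusted p = 0.0246), PKM2 by 0.81 (adjusted p = 0.0149), and EGLN1, ALDOC, PFKP, NDRG1, HK1 and PGAM1 by 0.39 to 0.55. ERO1A and PDK1 were lower under WIZ siRNA, by -1.15 (adjusted p = 0.0217) and -0.74 (adjusted p = 0.0214). The WIZ siRNA arrays were made in both orientations and the G9a siRNA arrays in 1, so treatment and array set cannot be told apart in this difference. With the dye effect subtracted, 8 members and 11.4% of all features were called. With only probes above background on every array, 13 of 33 members and 36.4% of all features were called. Without WIZ siRNA replicate 1, WIZ siRNA replicate 2 or G9a siRNA replicate 2 none was, with 14 of 34 at an unadjusted p under 0.05 in each case, against 21.7% to 23.1% of all features. Between WIZ siRNA and UNC0638 none of the 34 was called with limma, where 0.84% of all features were (0.0933% higher, 0.747% lower). An unadjusted p under 0.05 was found for 2 of the 34, 5.88% against 11.2% of all features.

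Further genes of glucose metabolism were also called in both directions under G9a siRNA. Of 47 listed, 44 were measured, and 14 rose and 14 fell (63.6%, median -0.056), where 33.2% of all features were called, 15% as higher and 18.2% as lower. Among those that fell, GAPDH, the enzyme between the upper and lower steps, averaged -0.58 (adjusted p = 0.0036), and GYS1, the muscle glycogen synthase, -0.97 (adjusted p = 0.00289). Genes of the pentose phosphate pathway, which branches off glucose 6-phosphate, fell as well: PGLS at -0.82 (adjusted p = 0.00454), PGD at -0.66 (adjusted p = 0.0235), TKT at -0.37 (adjusted p = 0.00638) and TALDO1 at -0.25 (adjusted p = 0.0257), whereas RPIA rose by 0.59 (adjusted p = 0.0118). Among the other fallers were SLC2A8 (-0.72), PYGB (-0.67), PGM1 (-0.51), PDK2 (-0.47), HKDC1 (-0.42) and MPC2 (-0.35).

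Among the risers, PGM2L1, which makes glucose 1,6-bisphosphate, averaged 1.12 (adjusted p = 0.00291), PDK4, like PDK1 a kinase of pyruvate dehydrogenase, 0.85 (adjusted p = 0.00435), and LDHB, the other main lactate dehydrogenase gene, 0.73 (adjusted p = 0.00892). The others were PGM2 (0.62), LDHC (0.52), SLC2A4 (0.48), PFKFB2 (0.47), SLC2A12 (0.45), SLC16A7 (0.41), PDP1 (0.38), SLC16A1 (0.36), TIGAR (0.35) and BPGM (0.34). Under UNC0638 LDHC alone of the 44 was called (0.3, adjusted p = 0.0496), 2.27% against 3.65% of all features, with PDK4 at 0.39 (adjusted p = 0.0667) and PFKFB2 at 0.3 (adjusted p = 0.124) as the other large means. Without replicate 3 LDHC averaged 0.32 (adjusted p = 0.0686) and was not called, and SLC2A10, a glucose transporter named here after its value was seen, was (0.34, adjusted p = 0.0461). That is 1 of the 44, 2.27% against 3.09% of all features. Under WIZ siRNA none of the 44 was called, where 0.615% of all features were. With limma 2 had an unadjusted p under 0.05, 4.55% against 8.07% of all features. The largest means were PGM2L1 at 0.67 (adjusted p = 0.146), PGM2 at -0.35 (adjusted p = 0.535) and RPIA at -0.23 (adjusted p = 0.839).

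Further hypoxia-response genes were called in both directions too. Of 59 listed, 57 were measured, and under G9a siRNA 9 rose and 7 fell (28.1%, median -0.074), where 33.2% of all features were called. EGLN2, the prolyl hydroxylase missing from the list above, fell by 1.02 on the log2 scale (adjusted p = 0.00401). The 2 lysyl hydroxylases of collagen on this list went opposite ways, PLOD1 at -1.04 (adjusted p = 0.0037) and PLOD2 at 0.72 (adjusted p = 0.00467). DDIT4, an inhibitor of mTOR signalling, averaged -0.81 (adjusted p = 0.00448), and HMOX1, which degrades haem, -0.59 (adjusted p = 0.00387). CCNG2 averaged 0.95 (adjusted p = 0.0193), BHLHE41, a transcriptional repressor, 0.78 (adjusted p = 0.00348), MXI1, an antagonist of MYC, 0.57 (adjusted p = 0.0105), and KDM3A, a demethylase of histone H3 lysine 9, 0.53 (adjusted p = 0.04). The remaining calls were TMEM45A (0.49), WSB1 (0.46), TFRC (0.31) and PLIN2 (0.22) as higher, and ANKZF1 (-0.64), POFUT4 (-0.4), listed under its older symbol FUT11, and LOXL2 (-0.38) as lower.

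Under UNC0638, 4 of these 57 were called, 7.02% against 3.65% of all features. CXCR4, a chemokine receptor, averaged -0.51 (adjusted p = 0.0108), TFRC, the transferrin receptor, 0.36 (adjusted p = 0.0188), STC2, a secreted glycoprotein, 0.29 (adjusted p = 0.0373), and BHLHE40, a relative of BHLHE41, 0.26 (adjusted p = 0.0364). PLOD1 averaged -0.3 (adjusted p = 0.171). Without replicate 3, 2 of the 57 were called, 3.51% against 3.09% of all features, which is near that share. They were CXCR4 at -0.47 (adjusted p = 0.0247) and TFRC at 0.31 (adjusted p = 0.0426), while STC2 at 0.3 (adjusted p = 0.0707) and BHLHE40 at 0.27 (adjusted p = 0.0614) were not called. Under WIZ siRNA none was called, where 0.615% of all features were. With limma 7 had an unadjusted p under 0.05, 12.3% against 8.07% of all features. The largest means were RORA at 0.43 (adjusted p = 0.913), POFUT4 at 0.33 (adjusted p = 0.254) and PLOD2 at -0.33 (adjusted p = 0.539).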

How the data were processed

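The deposited intensity values are mean pixel brightness of each spot in Cy3 and Cy5, with the median and SD of the local background, per the file headers. Next to these stand the deposited log2 ratios of the channels, normalized by the authors in a way that depends on brightness. A deposited table of the whole series holds the authors' log10 ratios: against the log2 ratios turned to treated over control, r was -0.877 to -0.918 on the 8 arrays of the dye-swapped replicates and 0.925 to 0.971 on the other 5, so it was turned accordingly, and its column medians were -0.01 to 0.00818. Its filter and centring, the scanner, the software and the slides are not given in the sources used here.

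From the intensities, the background was corrected with normexp (offset 50) and each array normalized by loess (span 0.3) with limma 3.58.1 in R 4.3.3. The 4259 control spots had weight 0, spots of 1 probe were averaged, ratios were turned to treated over control, and the orientations of a replicate were averaged. A probe passed the filter with a signal more than 2.6 background SDs above the background median on 50% or more of the arrays in any of the 6 RNA groups, and the brightest probe stood for a gene (28931 features). One model over the 9 biological replicates gave each treatment's mean and the differences between treatments (6 residual and 3.33 prior degrees of freedom), adjusted by Benjamini-Hochberg over all features. Probe symbols were updated through RefSeq accessions. Precision is limited by how many arrays there are. The script was tested on simulated data. Members, lists and tests were chosen with earlier results of these data known. The text names members called in any comparison, the 4 largest means per treatment, members whose probes disagree in sign, and the HIF and prolyl hydroxylase genes, and it names called genes of the 2 further lists, of which a few, counted in the totals, are not reported here by name. The alternatives were the authors' log2 and log10 ratios, median centring, no filter or a stricter one, the mean of all probes of a gene, dye or GC correction, separate fits, blocks and leaving out each replicate.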

Additional observations from a re-analysis of the deposited data

Results flagged for a closer look

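In the 5 UNC0638 replicates, 2 of the 34 members had 1 replicate far from the other four. PFKM read -0.23 in UNC0638 replicate 5, while the other replicates lay between 0.051 and 0.077. NDRG1 read -0.33 in UNC0638 replicate 3, while the others lay between -0.076 and -0.033. The mark is Dixon's 95% critical value for 5 samples, which by its construction chance passes in about 1 in 20 groups.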

How the results depend on the processing

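The counts of members called under G9a siRNA (21), UNC0638 (0), WIZ siRNA (0) and in the 3 differences (8, 0 and 13) were recomputed under each alternative. Of 120 counts, 90 lay within 1.5 times the first value. For UNC0638, WIZ siRNA and WIZ siRNA minus UNC0638 that value was 0, and each count that stayed 0 is among the 90. With the authors' log2 ratios the differences gave 1 (G9a siRNA minus UNC0638) and 6 (WIZ siRNA minus G9a siRNA), where 5.45% and 11.9% of all features were called. The log10 table, which holds 27 members, gave 5 and 7, where 14.1% and 23.4% of all features were called. With the dye effect subtracted, UNC0638 gave 1 (ADM), G9a siRNA 13 and WIZ siRNA minus G9a siRNA 8. The shares of all features called were 4.27%, 27.1% and 11.4%. Fitted on their own replicates, WIZ siRNA gave 13, G9a siRNA minus UNC0638 1 and WIZ siRNA minus G9a siRNA 22. Of all features, 23.7%, 3.01% and 37% were called in these fits. UNC0638 replicates 1 and 2 alone gave 2 for UNC0638 and 1 (PFKFB4) for WIZ siRNA minus UNC0638, with 4.46% and 4.56% of all features called. For G9a siRNA minus UNC0638, UNC0638 replicates 3 to 5 alone and the array set as a block each gave 0, with 0% and 2.42% of all features called. With the GC trend removed ALDOC under G9a siRNA averaged 0.067 (adjusted p = 0.52) and so changed direction. Leaving out 1 replicate at a time gave 0 to 1 for UNC0638, 0 to 0 for WIZ siRNA, 0 to 22 for G9a siRNA, 0 to 16 for G9a siRNA minus UNC0638, 0 to 0 for WIZ siRNA minus UNC0638 and 0 to 16 for WIZ siRNA minus G9a siRNA, where a treatment left with 1 replicate was assumed to vary like the others. The replicates share only a number (r of same-numbered deviations from -0.287 to 0.366). With the number as a replicate block the counts were 20 for G9a siRNA, 0 for UNC0638, 0 for WIZ siRNA, 5 for G9a siRNA minus UNC0638, 0 for WIZ siRNA minus UNC0638 and 13 for WIZ siRNA minus G9a siRNA. The shares of all features called were, in that order, 29.2%, 2.54%, 0.263%, 8.01%, 0.453% and 14.9%. Of 960 single-gene values, 723 kept direction and call, 230 kept direction and lost the call, and 6 gained it. Of the 42 single calls of the first fit, 0 were kept under every alternative, leaving out each replicate included. Beyond fewer samples or features, the cause was not tested.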
